A study of Mus musculus with 14 samples.

Results

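The glycolytic enzymes described here are 10 genes, namely Hk2, Gpi1, Pfkl, Pfkp, Aldoa, Tpi1, Pgk1, Pgam1, Eno1 and Ldha. They were taken by symbol from a gene table of 22295 rows, in which each symbol matched a single row. All 10 were among the 9627 genes that passed the expression filter, an RPKM (a read count scaled to gene length and library size) of at least 1 in at least 4 libraries. Gapdh was left out on the ground that near-identical copies take its reads, which was not tested here. RNA came from mouse splenic B cells that were isolated by negative selection and kept for 96 h in LPS at 5 µg/ml, a Toll-like receptor agonist, and IL-4 at 10 ng/ml, a T helper cytokine. The cells came from miR-155[-/-] mice, which lack the microRNA miR-155 (miR155_KO, n = 5), from PU.1[155-/155-] mice, knock-in mice whose PU.1 gene can no longer be targeted by miR-155 (PU1_KI, n = 5), and from wild type mice (WT, n = 4). Replicates are biological according to the design text, which does not say how many mice each stands for. Neither strain nor age is stated in the labels, and every group received both stimuli, so only stimulated cells were compared. These n hold throughout. A level is given in RPKM as mean ± SD, and a change as a log2 fold change ± SE on the log2(RPKM + 0.5) scale.

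Glycolysis splits glucose into pyruvate in the cytosol. In its preparatory steps hexokinase, glucose phosphate isomerase, phosphofructokinase, aldolase and triosephosphate isomerase spend ATP to make triose phosphates, and in its payoff steps phosphoglycerate kinase, phosphoglycerate mutase, enolase and pyruvate kinase regain ATP. Lactate dehydrogenase then turns pyruvate into lactate, which restores the NAD+ the pathway consumes. B cells stimulated to divide are known to take up more glucose and to raise glycolytic enzymes, and the transcription factors Myc and HIF-1 are known activators of many of these genes.

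Depth recovered from the steps of the RPKM values lay between 31.4 and 52.3 M reads per library, so that 1 RPKM on a gene of 2 kb stands for 62.9 to 104.7 reads. RPKM summed over the table lay between 193499 and 215573 in miR155_KO, between 201532 and 236181 in PU1_KI and between 192433 and 214376 in WT. Sfpi1, the gene of PU.1, was at 15.5 to 18.3 RPKM in miR155_KO, 21.1 to 25.96 in PU1_KI and 9.73 to 13.2 in WT, with no overlap between the genotypes. MiR-155 itself was not analysed here. The 6 B cell markers used, among them Cd79a and Pax5, were all expressed. Their sum was 1041 to 1133 RPKM in miR155_KO, 1243 to 1426 in PU1_KI and 1225 to 1419 in WT. By the test described below 4 of the 6 fell and 0 rose in miR155_KO against WT, where 35.3% of all tested genes fell. In PU1_KI against WT 2 rose and 1 fell, against 23.7% and 4.03% of all tested genes. Between the mutants 5 were lower in miR155_KO, against 46.4%. Macrophage markers (7 genes) summed to 1.61 to 1.92, 1.13 to 1.43 and 1.23 to 1.68 RPKM in the same order of genotypes, with C1qa at 0 throughout. Neutrophil markers (6 genes) reached 0.032 RPKM at most, with S100a8, S100a9, Elane, Ly6g and Retnlg at 0. T cell markers (6 genes) summed to 5.44 to 6.93 RPKM in miR155_KO, 5.71 to 7.02 in PU1_KI and 6.89 to 8.28 in WT, most of it Lck, which B cells can also express. Cd8a, under the expression filter and so not tested, was at 0.573 to 0.719 RPKM in miR155_KO, 0.017 to 0.1004 in PU1_KI and 0.0145 to 0.0474 in WT, with every miR155_KO library above all others. Cd3e, Cd3d, Cd3g and Cd4 had means of 0.0481 RPKM or less in every genotype. Dendritic cell markers (4 genes) summed to 19.3 to 25.5, 23.0 to 29.1 and 13.7 to 17.7 RPKM, almost all of it Flt3, with Itgax, Siglech and Xcr1 near 0. Pecam1, the expressed member of 4 stroma and endothelium markers, took their sum to 3.09 to 3.85 RPKM in miR155_KO, 6.76 to 7.53 in PU1_KI and 6.51 to 7.41 in WT. Markers of NK cells (4 genes) reached 0.455 RPKM in sum at most and those of erythroid cells (5 genes) 0.0724. The part of these differences in the enzyme values was not tested. In a bulk library fewer cells of a type and less RNA per cell cannot be told apart.

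The microRNA that the miR155_KO mice lack is shown first, with its seed (bases 2 to 8) in capitals. It is followed by the only match found among the enzymes, which leaves base 8 of the seed unpaired. Mature miR-155-5p is at chr16:84714143-84714165, plus strand (RefSeq, GRCm38.p6).
mmu-miR-155-5p: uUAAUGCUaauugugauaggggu
Pfkp site: gatcatccGCATTAAatttagct
The 7-base strings AGCATTA and GCATTAA were sought in the longest annotated 3′ UTR of each enzyme (GENCODE M21, GRCm38). AGCATTA pairs with bases 2 to 8, and GCATTAA pairs with bases 2 to 7 and has an A across from base 1. Only Pfkp held a match, 1 copy of GCATTAA at position 1640 of a 3′ UTR of 1692 bases, shown in capitals with 8 bases on each side, at chr13:6579806-6579828 on the minus strand. Among tested genes with an annotated 3′ UTR, 13.6% held a match to either form, and the median 3′ UTR was 784 bases in the 10 enzymes and 1155 in the tested genes. A match describes letters and is no measurement of binding.

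Upstream sequences of 4 enzymes are shown because these genes moved together or stood apart in the values below. Ldha, Pgk1 and Pfkl were among the enzymes with the largest falls in miR155_KO, as were Eno1, Tpi1 and Pgam1, which are not shown. Pfkp was the enzyme that did not fall there. Each is the 250 bases before a RefSeq start (GRCm38.p6), written on the strand of the gene. Capitals mark ACGTG and GCGTG on either strand (CACGT and CACGC when read on the other), the cores of the element bound by HIF-1, and the CACGTG E-box read by Myc overlaps the first of them.
Ldha, chr7:46845554-46845803, plus strand: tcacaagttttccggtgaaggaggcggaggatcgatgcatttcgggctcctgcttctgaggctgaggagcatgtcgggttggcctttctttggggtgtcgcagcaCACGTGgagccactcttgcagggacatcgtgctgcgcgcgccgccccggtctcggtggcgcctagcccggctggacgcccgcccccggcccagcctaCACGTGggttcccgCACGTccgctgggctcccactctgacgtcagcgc
Pgk1, chrX:106186850-106187099, plus strand: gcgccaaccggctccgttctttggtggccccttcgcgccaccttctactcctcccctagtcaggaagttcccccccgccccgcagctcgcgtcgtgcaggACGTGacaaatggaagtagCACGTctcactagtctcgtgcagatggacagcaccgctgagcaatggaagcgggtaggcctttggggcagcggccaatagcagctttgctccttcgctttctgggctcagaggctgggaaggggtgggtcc
Pfkl, chr10:78009808-78010057, minus strand: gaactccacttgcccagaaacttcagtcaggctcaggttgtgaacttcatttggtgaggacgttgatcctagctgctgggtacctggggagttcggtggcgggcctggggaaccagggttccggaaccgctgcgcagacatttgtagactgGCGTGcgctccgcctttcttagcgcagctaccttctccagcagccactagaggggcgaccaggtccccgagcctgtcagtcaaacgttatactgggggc
Pfkp, chr13:6648772-6649021, minus strand: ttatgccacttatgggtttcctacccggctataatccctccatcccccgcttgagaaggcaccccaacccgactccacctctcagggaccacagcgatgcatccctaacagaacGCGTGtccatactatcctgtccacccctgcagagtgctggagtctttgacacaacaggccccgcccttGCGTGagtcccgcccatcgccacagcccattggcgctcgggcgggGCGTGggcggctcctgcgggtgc
The Ldha window shown, that of the first of 2 listed starts, held 2 copies of CACGTG and 1 further CACGT. The window of the second Ldha start, not shown, had 1 GCGTG and neither ACGTG nor CACGTG. The Pgk1 window held ACGTG on both strands. Pfkl had 1 copy of GCGTG and Pfkp had 3, and neither had ACGTG. Over all 15 listed starts of the 10 enzymes, ACGTG in either orientation occurred upstream of Hk2, Aldoa, Pgk1, Pgam1 and Ldha, 5 of 10 genes, against 18.5% of all genes with a listed start. GCGTG occurred in 5 of 10 (Pfkl, Pfkp, Pgam1, Eno1 and Ldha), against 30.9%, and CACGTG in 1 of 10 (Ldha), against 6.86%. The windows were rich in G and C, with a median of 62.8% in the enzymes and 52.4% over all starts, so the enzymes' starts were also set beside starts within their own range of GC content. ACGTG was in 6 of the 15 enzyme starts, against 20.3% of those starts, GCGTG in 7 of 15, against 38.3%, and CACGTG in 1 of 15, against 7.81%. Windows of neighbouring starts overlap in Aldoa and in Eno1, so the same site is counted there at more than 1 start. Gpi1 and Tpi1 held none of the 3 strings. Of the enzymes with the largest falls in miR155_KO, Pgk1, Pgam1 and Ldha held ACGTG, and Pfkl, Tpi1 and Eno1 did not. Of the others, Hk2 and Aldoa held it, and Gpi1 and Pfkp did not. A link between these strings and the falls was not tested.

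Without miR-155 most of the pathway was lower. In miR155_KO against WT, 9 of the 10 enzymes fell and 0 rose (limma on log2(RPKM + 0.5), Benjamini-Hochberg adjusted p under 0.05 over all tested genes), where 35.3% of all tested genes were called lower and 27.2% higher. Every miR155_KO library lay below every WT library for 8 enzymes, against 24.9% of tested genes (23.5% lay above). In PU1_KI against WT, 6 enzymes rose and 0 fell, where 23.7% of tested genes were called higher and 4.03% lower, and for 5 enzymes every PU1_KI library lay above every WT library, against 18.4% of tested genes (3.76% lay below). With median-of-ratios scaling, 1677 genes were called higher and 1518 lower in that comparison in place of 2279 and 388, and 4 enzymes rose, Pfkl and Tpi1 no longer passing. In miR155_KO against PU1_KI all 10 enzymes were lower and none overlapped, where 46.4% of tested genes were called lower, 17.9% were called higher and 29.7% lay below without overlap (13.4% above). Median-of-ratios scaling gave 3033 higher and 3013 lower calls between the mutants, in place of 1725 and 4467, put the median change of all tested genes at -0.0039 in place of -0.13, and left all 10 enzymes called lower.

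**Figure D1:**
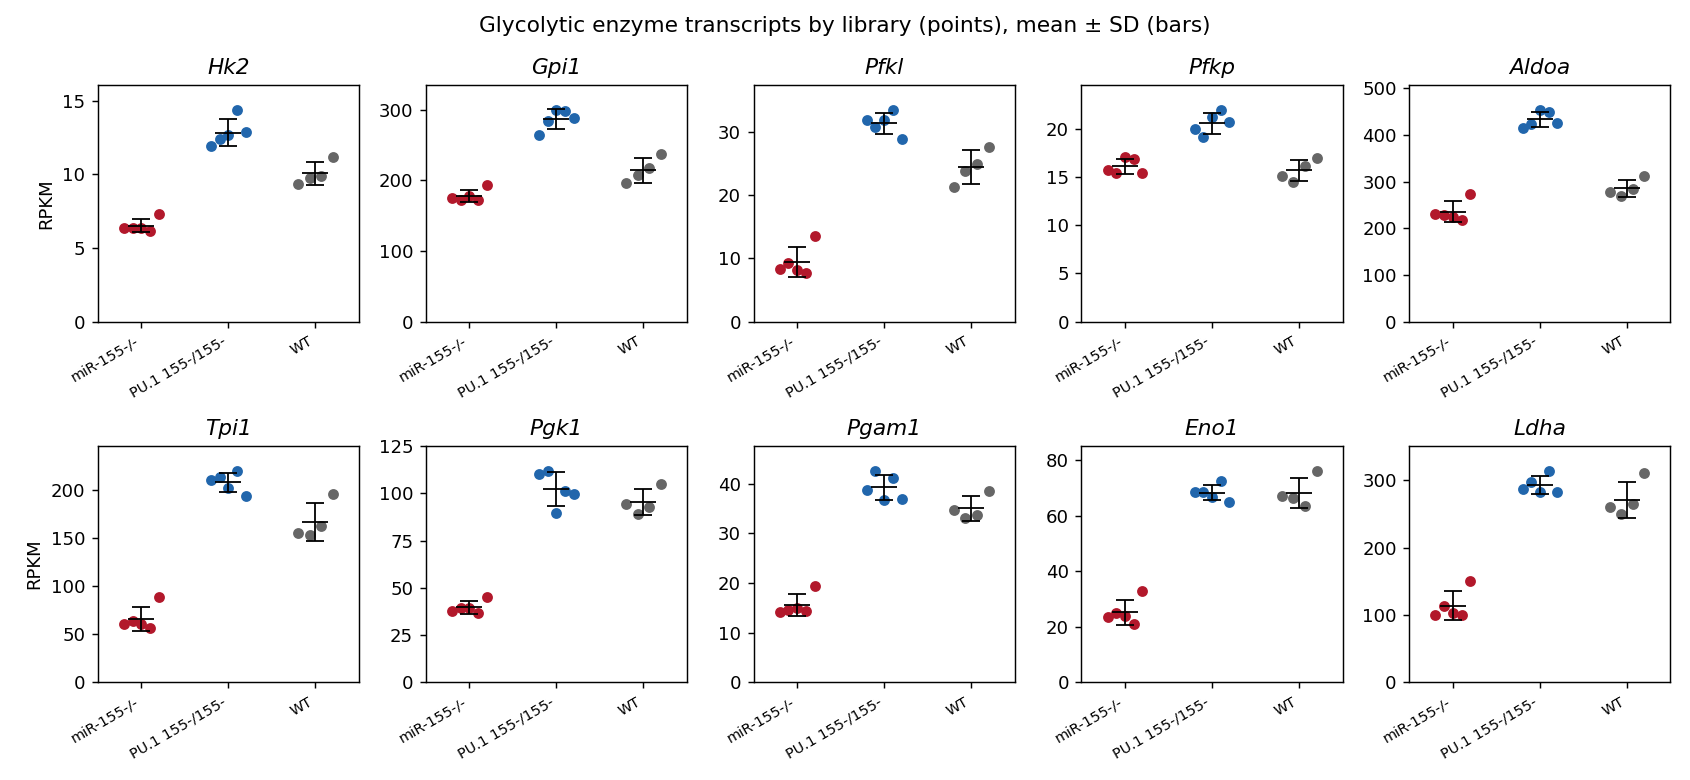
RPKM of each enzyme (vertical axes, from 0) in the 5 miR155_KO (miR-155-/-), 5 PU1_KI (PU.1 155-/155-) and 4 WT libraries; points are libraries and bars are mean ± SD. The miR155_KO libraries lie below all others for every enzyme but Pfkp and, through 1 library at 274 RPKM, Aldoa.

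Hk2 codes for hexokinase II, the enzyme that traps glucose in the cell by phosphorylation (ENSMUSG00000000628, chromosome 6 from 82675019 to 82724448, minus strand, NCBIM37). Its RPKM was 6.37, 6.34, 6.38, 6.13 and 7.27 in miR155_KO, 11.9, 12.4, 12.6, 14.3 and 12.9 in PU1_KI, and 9.34, 9.77, 9.90 and 11.2 in WT. The 3 genotypes formed separate bands, with miR155_KO lowest and PU1_KI highest. Hk2 fell in miR155_KO (log2 fold change -0.59 ± 0.07, limma adjusted p = 2.43e-07) and rose in PU1_KI (0.34 ± 0.07, limma adjusted p = 0.000669).

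Gpi1, glucose phosphate isomerase (ENSMUSG00000036427, chromosome 7 from 34987141 to 35015300, minus strand), showed bands in the same order at a far higher level. It was at 175, 172, 177, 172 and 193 RPKM in miR155_KO, at 264, 283, 299, 298 and 288 in PU1_KI and at 196, 208, 217 and 237 in WT. The highest miR155_KO library came close to the lowest WT library without reaching it, and PU1_KI stood clear of both. Gpi1 fell in miR155_KO (log2 fold change -0.27 ± 0.06, limma adjusted p = 0.00116) and rose in PU1_KI (0.42 ± 0.06, limma adjusted p = 5.88e-05).

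Phosphofructokinase carries out the committed step of glycolysis, and B cells held the liver isozyme Pfkl and the platelet isozyme Pfkp, named for the tissues where they were described. Pfkl (ENSMUSG00000020277, chromosome 10 from 77449692 to 77472552, minus strand) was at 8.35, 9.30, 8.11, 7.71 and 13.5 RPKM in miR155_KO, at 31.8, 30.8, 31.9, 33.4 and 28.8 in PU1_KI and at 21.3, 23.9, 24.9 and 27.7 in WT. The library miR155_KO_5 stood above the other 4 and still far below WT. Pfkl fell in miR155_KO by 1.36 ± 0.11 on the log2 scale (limma adjusted p = 6.21e-09), to 0.39 of the WT level, and rose in PU1_KI (0.36 ± 0.11, limma adjusted p = 0.0258). That rise no longer passed with median-of-ratios scaling (0.27, limma adjusted p = 0.056) or without WT_1 (0.29, limma adjusted p = 0.0958), WT_2 (0.35, limma adjusted p = 0.0592) or PU1_KI_4 (0.33, limma adjusted p = 0.0597).

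Pfkp (ENSMUSG00000021196, chromosome 13 from 6579014 to 6648023, minus strand) went another way. It was at 15.7, 15.4, 17.1, 16.9 and 15.4 RPKM in miR155_KO, at 19.97, 19.1, 21.2, 21.9 and 20.7 in PU1_KI and at 15.1, 14.5, 16.2 and 17.0 in WT. The miR155_KO and WT libraries overlapped, and the PU1_KI libraries stood above both. Its log2 fold change in miR155_KO was 0.04 ± 0.06 (limma adjusted p = 0.609), and it rose in PU1_KI (0.38 ± 0.06, limma adjusted p = 8.41e-05). Pfkp was also the enzyme whose 3′ UTR held the match shown above, and a link between that match and these values was not tested.

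The shares of the phosphofructokinase transcripts are given as a description, with no test. Of the summed RPKM of Pfkl, Pfkp and the muscle isozyme Pfkm, Pfkl made up 32.2 ± 5.47% in miR155_KO, 56.6 ± 1.44% in PU1_KI and 56.7 ± 1.71% in WT. Pfkp made up 56.0 ± 5.58%, 37.2 ± 1.21% and 36.5 ± 1.5% in the same genotypes. The lowest Pfkp share in miR155_KO, 47.2% in miR155_KO_5, was above the highest in PU1_KI, 38.96%, and in WT, 38.6%. The sum itself was 28.9 ± 2.09 RPKM in miR155_KO, 55.4 ± 2.49 in PU1_KI and 43.1 ± 3.72 in WT.

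**Figure D2:**
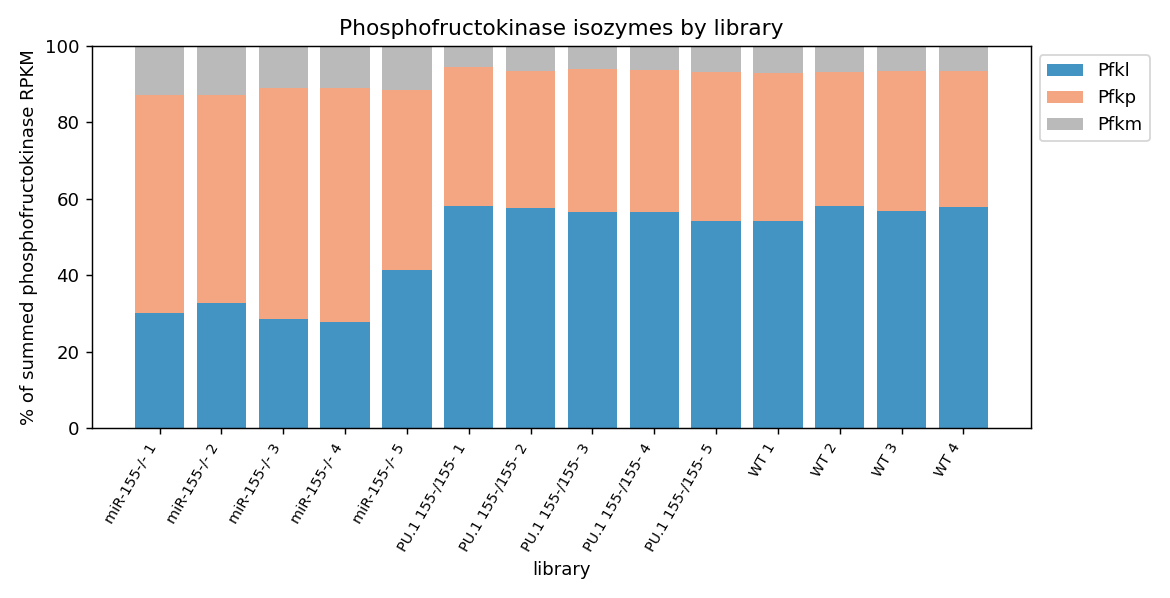
Share of the summed phosphofructokinase RPKM (vertical axis, percent) taken by Pfkl, Pfkp and Pfkm in each of the 14 libraries, with miR155_KO (miR-155-/-) left, PU1_KI (PU.1 155-/155-) in the middle and WT right. Pfkl holds 27.9 to 41.4% in miR155_KO and 54.3% or more in every other library.

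Aldoa, the aldolase that splits the hexose into triose phosphates (ENSMUSG00000030695, chromosome 7 from 133938748 to 133944265, minus strand), was the most abundant of the 10 in every genotype. Its RPKM was 231, 229, 225, 217 and 274 in miR155_KO, 416, 423, 453, 448 and 426 in PU1_KI, and 277, 269.6, 284 and 311 in WT. The PU1_KI libraries lay far above the rest, whereas miR155_KO_5 overlapped the WT range. Its rise in PU1_KI, 0.60 ± 0.07 (limma adjusted p = 1.87e-06), had the highest log2 fold change of the 10 enzymes in that comparison, and 97.9% of tested genes had a lower one. The fall in miR155_KO was -0.28 ± 0.07 (limma adjusted p = 0.0013).

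Tpi1, triosephosphate isomerase, which interconverts the products of aldolase (ENSMUSG00000023456, chromosome 6 from 124760604 to 124764314, minus strand), was at 60.1, 64.3, 60.3, 56.6 and 88.3 RPKM in miR155_KO, at 209.97, 214, 202, 219.7 and 194 in PU1_KI and at 155, 153, 162 and 195 in WT. PU1_KI and WT touched at 1 library each, and miR155_KO lay well below both. Its fall in miR155_KO was -1.34 ± 0.10 (limma adjusted p = 1.39e-09). The rise in PU1_KI was 0.33 ± 0.10 (limma adjusted p = 0.022), and it no longer passed with median-of-ratios scaling (0.24, limma adjusted p = 0.0521) or without WT_1 (0.29, limma adjusted p = 0.0659), WT_2 (0.29, limma adjusted p = 0.0733) or PU1_KI_4 (0.31, limma adjusted p = 0.0516).

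**Figure D3:**
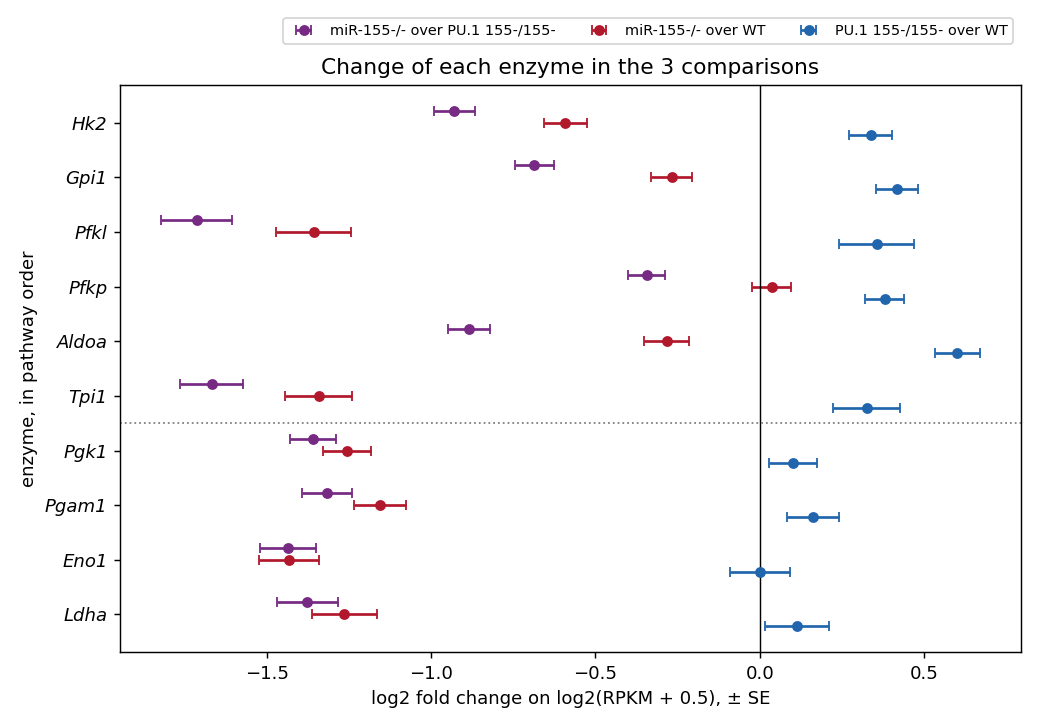
Log2 fold change ± SE (horizontal axis) of each enzyme, in pathway order from top to bottom, for miR155_KO over PU1_KI, miR155_KO over WT and PU1_KI over WT; the dotted line separates the enzymes up to Tpi1 from those after it. The blue points of PU1_KI over WT lie at 0.33 or above for the upper 6 enzymes and at 0.16 or below for the lower 4.

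The payoff enzymes fell in miR155_KO as well and did not pass in PU1_KI. Pgk1, phosphoglycerate kinase, the first ATP-forming step (ENSMUSG00000062070, chromosome X from 103382439 to 103399038, plus strand), was at 37.7, 39.5, 39.4, 36.6 and 44.9 RPKM in miR155_KO, at 110.2, 112, 89.3, 101 and 99.7 in PU1_KI and at 94.5, 89.2, 92.5 and 105 in WT. PU1_KI and WT overlapped, and every miR155_KO library was far below both. Its log2 fold change was -1.26 ± 0.07 in miR155_KO (limma adjusted p = 2.97e-11) and 0.10 ± 0.07 in PU1_KI (limma adjusted p = 0.328). Pgam1, phosphoglycerate mutase (ENSMUSG00000011752, chromosome 19 from 41986361 to 41993154, plus strand), was at 14.2, 14.6, 15.0, 14.5 and 19.4 RPKM in miR155_KO, at 38.8, 42.5, 36.7, 41.1 and 37.0 in PU1_KI and at 34.8, 33.0, 33.8 and 38.5 in WT. PU1_KI and WT overlapped here as well, and miR155_KO lay apart from both. It fell in miR155_KO (-1.16 ± 0.08, limma adjusted p = 3.85e-10) and differed by 0.16 ± 0.08 in PU1_KI (limma adjusted p = 0.142). Without miR155_KO_5, which shares the estimate of the spread, the difference of Pgam1 between PU1_KI and WT passed (0.16, limma adjusted p = 0.0387).

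Eno1, the enolase that forms phosphoenolpyruvate (ENSMUSG00000063524, chromosome 4 from 149610830 to 149622988, plus strand), had the largest fall of the 10 in miR155_KO against WT. Its libraries held 23.5, 25.1, 23.7, 20.9 and 32.7 RPKM in miR155_KO, 68.3, 68.5, 66.8, 72.5 and 65.1 in PU1_KI and 67.0, 66.4, 63.5 and 76.0 in WT. PU1_KI and WT covered the same range, and no miR155_KO library came near it. The log2 fold change in miR155_KO was -1.43 ± 0.09 (limma adjusted p = 1.07e-10), a level 0.371 times that of WT, and 0.280% of tested genes fell further. In PU1_KI it was 0.00 ± 0.09 (limma adjusted p = 0.99), and it took the other sign with median-of-ratios scaling (-0.09, limma adjusted p = 0.432).

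Ldha, lactate dehydrogenase A (ENSMUSG00000063229, chromosome 7 from 54096845 to 54110997, plus strand), was at 100.5, 113, 104, 101 and 151 RPKM in miR155_KO, at 287, 297, 283, 314 and 282 in PU1_KI and at 261, 249.97, 264 and 310.2 in WT. The last miR155_KO library was highest of its group and remained below the lowest WT library. Ldha fell by 1.26 ± 0.10 on the log2 scale in miR155_KO (limma adjusted p = 1.75e-09) and differed by 0.11 ± 0.10 in PU1_KI (limma adjusted p = 0.424).

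Set side by side, the enzymes differed in size of change in each mutant. In miR155_KO against WT, Pfkl, Tpi1, Pgk1, Pgam1, Eno1 and Ldha had log2 fold changes between -1.43 and -1.16, and Hk2, Gpi1, Aldoa and Pfkp between -0.59 and 0.04. The median was -1.21, where that of all tested genes was -0.05. In PU1_KI against WT the 6 enzymes from Hk2 to Tpi1 had values between 0.33 and 0.60, and the 4 from Pgk1 to Ldha between 0.00 and 0.16. The median was 0.33, where that of all tested genes was 0.08. A call in the upper steps and none in the lower steps does not show that the steps differ, and that difference was not tested. As a description of the libraries, the mean over the upper 6 minus the mean over the lower 4, each relative to the WT mean on the log2 scale, was 0.55 to 0.69 in miR155_KO, 0.21 to 0.42 in PU1_KI and -0.08 to 0.06 in WT. The ratio of Eno1 to Aldoa RPKM was 0.107 ± 0.0087 in miR155_KO, 0.158 ± 0.0072 in PU1_KI and 0.239 ± 0.0104 in WT.

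**Figure D4:**
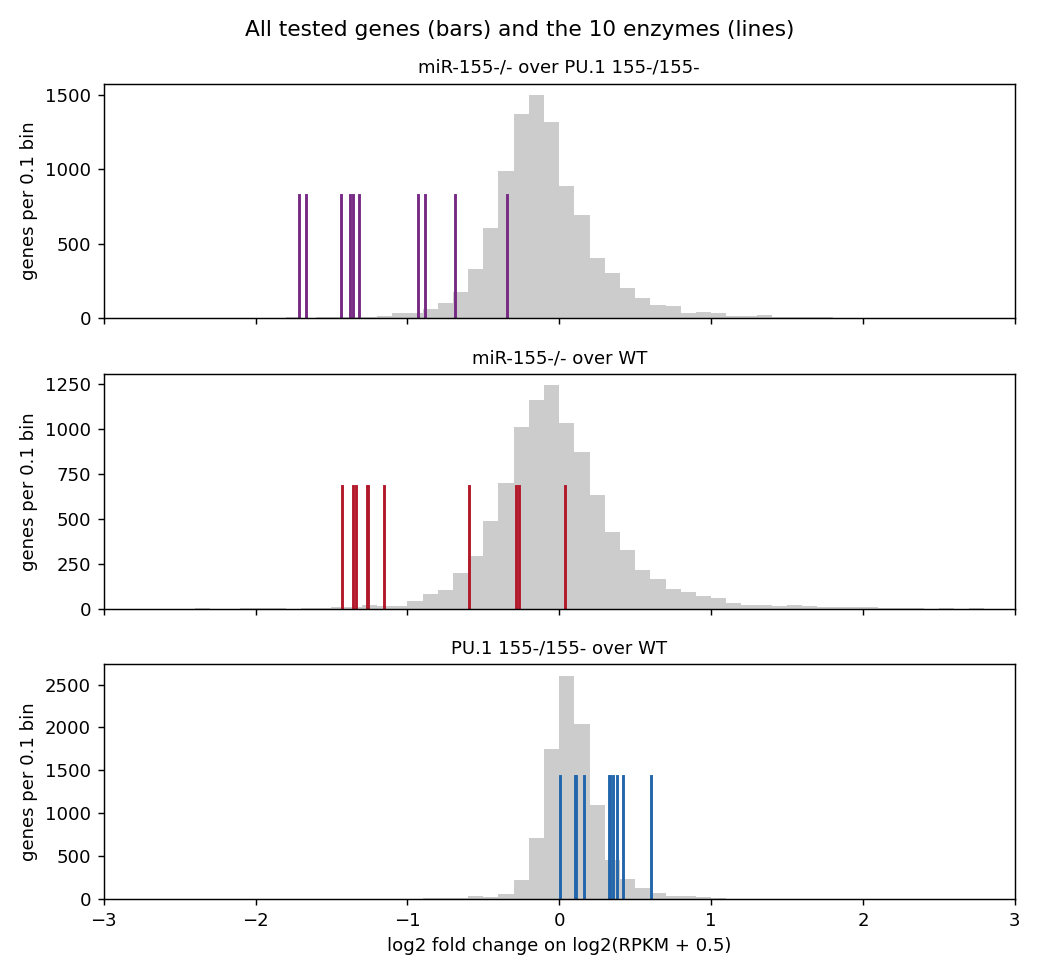
Number of tested genes per bin of log2 fold change (grey bars) and the 10 enzymes (coloured lines) for miR155_KO over PU1_KI (top), miR155_KO over WT (middle) and PU1_KI over WT (bottom). In the middle panel 6 lines lie at -1.16 or below, and in the bottom panel all 10 lie between 0.00 and 0.60.

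Between the mutants all 10 enzymes were lower in miR155_KO than in PU1_KI. The differences ran from -1.71 ± 0.11 for Pfkl (limma adjusted p = 1.15e-10) to -0.34 ± 0.06 for Pfkp (limma adjusted p = 3.2e-05), with a median of -1.34, where the median of all tested genes was -0.13. Tpi1 was next to Pfkl at -1.67 ± 0.10, and Gpi1 next to Pfkp at -0.69 ± 0.06. Both mutants share the WT libraries in their comparisons with WT, so their signs relative to WT are not independent of each other. Together the 10 enzymes held 705 ± 76.8 RPKM in miR155_KO, 1495 ± 44.5 in PU1_KI and 1187 ± 97.9 in WT, or 0.350 ± 0.024%, 0.681 ± 0.029% and 0.574 ± 0.037% of the RPKM of the table.

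The order of the levels was nearly the same in each genotype. In WT it ran from Aldoa (286 ± 18.1 RPKM) over Ldha (271 ± 26.6), Gpi1 (215 ± 17.6), Tpi1 (166 ± 19.7), Pgk1 (95.3 ± 6.76), Eno1 (68.2 ± 5.42), Pgam1 (35.0 ± 2.44), Pfkl (24.5 ± 2.64) and Pfkp (15.7 ± 1.11) to Hk2 (10.0 ± 0.79). Aldoa and Ldha overlapped between libraries there, and the WT ranges of the other neighbours did not overlap. PU1_KI had the same order, with Ldha (293 ± 13.2) and Gpi1 (286 ± 14.4) overlapping. In miR155_KO Gpi1 (178 ± 8.70) stood above Ldha (114 ± 21.5), and Pfkp (16.1 ± 0.81) above Pfkl (9.39 ± 2.37), with no overlap in either pair. Pfkp also had a higher mean there than Pgam1 (15.5 ± 2.19), the reverse of the order in PU1_KI and WT, but the libraries of these genes overlapped, Pgam1 reaching 19.4 RPKM in miR155_KO_5. Several of these enzymes have processed copies in the mouse genome, and no source used here says how reads that match both were counted, so levels between genes are uncertain. Of the 8 copies looked for, 4 had a row in the table, and the rest had no value. Aldoart1, Aldoart2, Gm5506 and Pgk2 were each listed at a mean of 0.083 RPKM or less in every genotype, so hardly any reads appear under those names.

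Within a genotype the same library was often highest for many enzymes. MiR155_KO_5 was the highest miR155_KO library for 9 of the 10, all but Pfkp, by a factor over the mean of the other 4 of 1.11 for Gpi1 to 1.61 for Pfkl. WT_4 was the highest WT library for all 10, and PU1_KI_4 the highest PU1_KI library for 6. These libraries also had the largest RPKM sums over the table in their genotypes, 215573 in miR155_KO_5, 214376 in WT_4 and 236181 in PU1_KI_4. As a share of that sum the 10 enzymes held 0.390% in miR155_KO_5 and 0.620% in WT_4, each the highest of its genotype. In PU1_KI_4 they held 0.662%, below the 0.723% of PU1_KI_1, whose sum was the smallest of PU1_KI. The part of the sums in these ranks was not tested. The mean log2 difference from WT over the 10 was -1.01 to -0.91 in the first 4 miR155_KO libraries and -0.62 in miR155_KO_5. Leaving out miR155_KO_5 kept 9 of 10 enzymes lower than WT and 10 of 10 lower than PU1_KI. Over the 14 libraries the 45 pairs of enzymes had correlations from 0.43 (Eno1 with Pfkp) to 0.997, with a median of 0.94. After each genotype's mean was removed the median was 0.74, and the median of the pairs with Pfkp was -0.01. The enzymes share libraries and depth, so these correlations are a description.

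**Figure D5:**
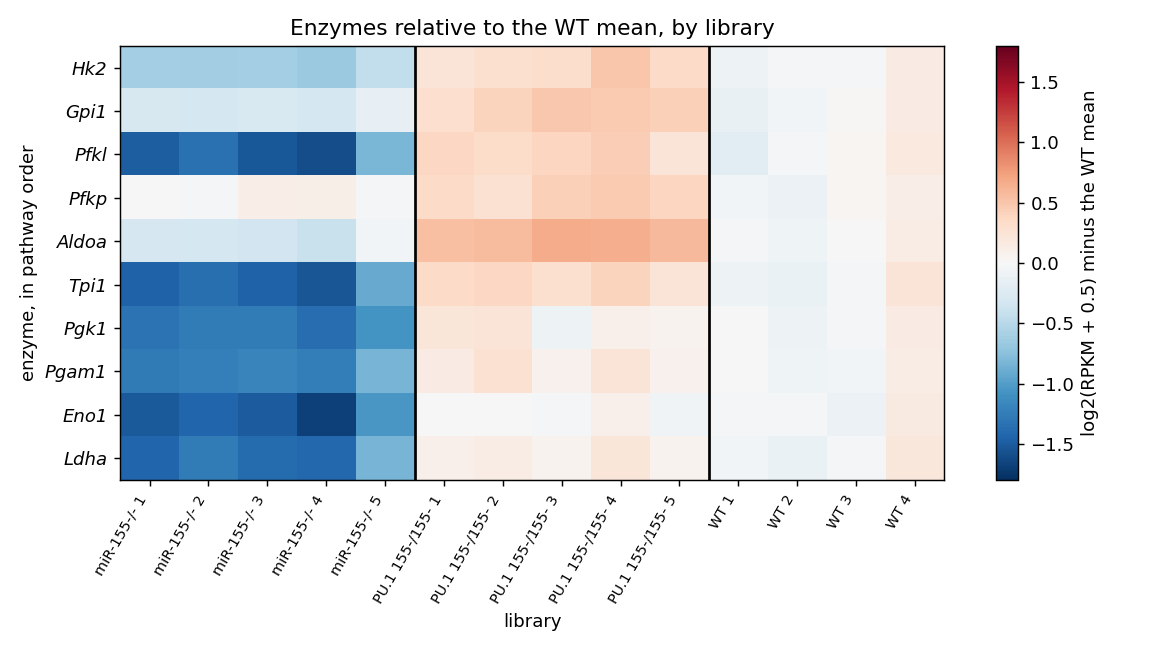
Log2(RPKM + 0.5) of each enzyme (rows, in pathway order) minus its WT mean, in each library (columns, miR155_KO as miR-155-/- left, PU1_KI as PU.1 155-/155- in the middle, WT right). The miR155_KO_5 column is paler than its 4 neighbours, with a mean of -0.62 against -1.01 to -0.91.

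Other genes of glycolysis and its transport steps were read from lists of related genes. The counts below stand beside these shares of all tested genes: 35.3% were lower and 27.2% higher in miR155_KO than in WT, 23.7% were higher and 4.03% lower in PU1_KI than in WT, and 46.4% were lower and 17.9% higher in miR155_KO than in PU1_KI. The medians of all tested genes were -0.05, 0.08 and -0.13 in those comparisons. Of 17 other isozymes and uncovered steps in the table, 7 were tested, and 4 fell and 3 rose in miR155_KO, 4 rose and 0 fell in PU1_KI, and between the mutants 4 were lower and 2 higher in miR155_KO. Their median log2 fold changes were -0.22, 0.22 and -0.52. Pkm2, pyruvate kinase of the last ATP-forming step, was at 229 ± 34.9 RPKM in miR155_KO, 515 ± 19.7 in PU1_KI and 447 ± 38.8 in WT, and fell in miR155_KO (-0.97 ± 0.09, limma adjusted p = 1.19e-08). In PU1_KI it differed by 0.21 ± 0.09 (limma adjusted p = 0.0776). Aldoc, a second aldolase, followed Aldoa with 11.7 ± 0.76, 29.8 ± 1.11 and 19.8 ± 1.82 RPKM in the same genotypes, and Hk1, the second hexokinase, with 7.47 ± 0.60, 11.4 ± 0.93 and 8.81 ± 1.05. Eno2, the enolase known from neurons, went against Eno1: it was at 6.21 ± 0.72 RPKM in miR155_KO, 4.67 ± 0.60 in PU1_KI and 2.98 ± 0.29 in WT, and rose in both mutants (0.95 ± 0.09, limma adjusted p = 2.32e-08, and 0.57 ± 0.09, limma adjusted p = 7.68e-05). Bpgm, which makes the bisphosphoglycerate that binds haemoglobin in red cells, fell in miR155_KO (-0.50 ± 0.05, limma adjusted p = 2.22e-07). Gapdh was listed at 0.659 ± 0.035 RPKM in miR155_KO, 0.803 ± 0.136 in PU1_KI and 0.982 ± 0.141 in WT and was not tested.

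Of 8 tested genes of glucose and lactate transport, 5 fell and 1 rose in miR155_KO, and 4 rose and 0 fell in PU1_KI. Between the mutants 5 were lower and 1 higher in miR155_KO. The medians were -0.45, 0.22 and -0.62. Slc16a3, the lactate exporter MCT4, held 1.24 ± 0.17 RPKM in miR155_KO, 9.97 ± 0.75 in PU1_KI and 5.86 ± 0.97 in WT. It fell in miR155_KO (-1.86 ± 0.09, limma adjusted p = 2.25e-12) and rose in PU1_KI (0.73 ± 0.09, limma adjusted p = 6.73e-06). The glucose carriers Slc2a1 and Slc2a3 fell in miR155_KO (-0.83 ± 0.10 and -0.36 ± 0.07) and rose in PU1_KI (0.40 ± 0.10 and 0.39 ± 0.07). Slc2a6, named here after its values were seen, had the highest level of the Slc2a genes listed. It held 60.6 ± 4.82 RPKM in miR155_KO, 65.9 ± 4.41 in PU1_KI and 62.4 ± 7.29 in WT. It differed from WT by -0.04 ± 0.08 in miR155_KO (limma adjusted p = 0.704) and 0.08 ± 0.08 in PU1_KI (limma adjusted p = 0.47). Slc16a1, the lactate carrier MCT1, and Bsg, the chaperone that brings these carriers to the membrane, fell in miR155_KO (-0.54 ± 0.08 and -0.69 ± 0.09) and differed from WT by -0.05 ± 0.08 and 0.10 ± 0.09 in PU1_KI.

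Of 22 tested regulators of glycolytic flux and glycolytic genes, 12 fell and 3 rose in miR155_KO, 6 rose and 2 fell in PU1_KI, and 16 were lower and 3 higher in miR155_KO than in PU1_KI, with medians of -0.22, 0.13 and -0.41. Pdk1, a kinase that inhibits pyruvate dehydrogenase, fell in miR155_KO (-0.54 ± 0.06) and rose in PU1_KI (0.45 ± 0.06). Txnip, an inhibitor of glucose uptake, also fell (-0.82 ± 0.09) and rose (0.34 ± 0.09), although its known action opposes that of the carriers. Egln3, a prolyl hydroxylase that marks HIF-1 alpha for destruction, held 0.625 ± 0.129 RPKM in miR155_KO, 2.09 ± 0.165 in PU1_KI and 1.68 ± 0.341 in WT and fell in miR155_KO (-0.95 ± 0.10). Hif1a, the gene of HIF-1 alpha, moved the opposite way to the enzymes, with 13.99 ± 0.87 RPKM in miR155_KO, 8.76 ± 0.36 in PU1_KI and 10.3 ± 0.37 in WT (0.43 ± 0.06, limma adjusted p = 1.81e-06, and -0.22 ± 0.06, limma adjusted p = 0.00561). Pfkfb3, which makes the allosteric activator of phosphofructokinase, rose in PU1_KI (0.41 ± 0.05, limma adjusted p = 2.83e-06) and differed by -0.08 ± 0.05 in miR155_KO (limma adjusted p = 0.162). Myc, named here after its values were seen, was at 18.5 ± 2.21 RPKM in miR155_KO, 31.3 ± 2.91 in PU1_KI and 30.2 ± 4.37 in WT, and fell in miR155_KO (-0.69 ± 0.10, limma adjusted p = 4.53e-06). The activity of these regulators was not measured.

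Of 10 tested genes of the pentose phosphate pathway, which feeds nucleotide synthesis from glucose phosphate, 4 fell and 1 rose in miR155_KO, 1 rose and 0 fell in PU1_KI, and 6 were lower and 0 higher in miR155_KO than in PU1_KI, with medians of -0.13, 0.07 and -0.20. The 4 that fell are near the share of 35.3% over all tested genes. Pgd, its decarboxylating dehydrogenase, and Rpia, the ribose phosphate isomerase, fell in miR155_KO (-0.58 ± 0.10 and -0.49 ± 0.06), and Rpe and Prps2 fell by 0.19 ± 0.06 and 0.26 ± 0.05. Of 24 tested genes of pyruvate entry and the tricarboxylic acid cycle, 5 fell and 5 rose in miR155_KO, 5 rose and 0 fell in PU1_KI, and 10 were lower and 3 higher in miR155_KO than in PU1_KI, with medians of -0.01, 0.09 and -0.12. The count that fell in miR155_KO was below the 35.3% of all tested genes, and the count that rose in PU1_KI was near their 23.7%. Idh3a fell (-0.54 ± 0.08) and Idh2, the NADP-dependent isocitrate dehydrogenase of mitochondria, rose (0.51 ± 0.06) in miR155_KO.

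Of 18 tested enzymes that run against glycolysis or branch from it, 7 rose and 4 fell in miR155_KO, 7 rose and 0 fell in PU1_KI, and 6 were higher and 6 lower in miR155_KO than in PU1_KI, with medians of 0.07, 0.18 and 0.00. Pck2, the mitochondrial enzyme that makes phosphoenolpyruvate from oxaloacetate, was at 56.2 ± 1.71 RPKM in miR155_KO, 27.4 ± 2.57 in PU1_KI and 18.3 ± 1.67 in WT and rose in both mutants (1.59 ± 0.07, limma adjusted p = 5.15e-13, and 0.56 ± 0.07, limma adjusted p = 6.18e-06). Psph, the last enzyme of serine synthesis, rose in miR155_KO (0.84 ± 0.08), as did Gys1, glycogen synthase (0.70 ± 0.07). Pgm2, a phosphoglucomutase, behaved like the enzymes, with 6.77 ± 0.63 RPKM in miR155_KO, 17.2 ± 0.77 in PU1_KI and 12.5 ± 1.21 in WT.

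Pgm2 was also the gene whose levels followed the enzymes most closely. Among 6040 other tested genes with a mean of at least 5 RPKM, the highest Pearson correlations with the mean z-score of the 10 enzymes over the 14 libraries were those of Pgm2 (0.998), Dck, Casp2, Prelid1, Mtmr14, Slc16a3, Trim25 and Gltpd1, the last at 0.989. The enzymes themselves had correlations of 0.688 (Pfkp) to 0.996 (Hk2) with that mean. With 3 genotypes that differ, such a value mostly records the difference between genotypes, and it is given as a description. Dck, deoxycytidine kinase, was at 8.24 ± 0.62 RPKM in miR155_KO, 14.2 ± 0.94 in PU1_KI and 12.2 ± 0.76 in WT.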

How the data were processed

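RNA-seq libraries of the 14 B cell samples were made from polyadenylated RNA with a TruSeq kit, per the labels' protocols. The authors deposited RPKM values, a row per gene and a column per library. Trim Galore, TopHat and build NCBIM37 are named in the submitters' processing notes, without versions; the counter, annotation, strand setting and treatment of multimapping reads are recorded in none of the sources used here. All columns matched a library by title, none of the 91 pairs was identical, and 63 rows that repeat a gene ID were kept.

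Depth was estimated from the 250 lowest values above 0 of genes spanning under 2500 bp, as the smallest depth that makes most of them whole reads. Between 65.6% and 72.0% came within 0.01 reads of a whole number, so depth is approximate. No count model was used.

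The test was limma 3.58.1 (R 4.3.3) on log2(RPKM + 0.5), all 14 libraries, 1 mean per genotype, intensity trend, two-sided, Benjamini-Hochberg over 9627 genes, adjusted p under 0.05. The fit was tested on simulated data with known changes.

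The members, lists and alternatives were chosen with earlier results of these data known. Up to 5 genes per list were named, those with the smallest adjusted p in any comparison, and Myc and Slc2a6 besides. RefSeq and GENCODE M21 sequences are on GRCm38, and no coordinate was converted between builds. Tables and figures were made in Python 3.11.15 (matplotlib 3.10.9, pandas 2.3.3, numpy 2.4.6).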

Additional observations from a re-analysis of the deposited data

Results flagged for a closer look

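In 7 of the 30 combinations of enzyme and genotype, 1 library stood apart from the rest of its genotype, its gap to the nearest other library being over 0.71 of the range of 5 libraries. All 7 were miR155_KO_5, high in each case. Chance gives such a gap in about 1 of 20 groups, and the 7 share a library. Over the table, RPKM summed to 215573 in miR155_KO_5, against 193499 to 201820 in the other 4 miR155_KO libraries. As a share of each library's sum, the enzymes together held 0.390% in miR155_KO_5, against 0.327 to 0.350% in the other 4. The part of the larger sum in the flags of miR155_KO_5 was not tested. The library held 7.27 RPKM of Hk2, with the other 4 at 6.13 to 6.38, and 193 RPKM of Gpi1, with the others at 172 to 177. It held 13.5 RPKM of Pfkl, against 7.71 to 9.30, and 274 RPKM of Aldoa, against 217 to 231. Tpi1 was at 88.3 RPKM, against 56.6 to 64.3, Pgam1 at 19.4, against 14.2 to 15.0, and Ldha at 151, against 100.5 to 113.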

How the results depend on the processing

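In miR155_KO against WT 9 enzymes were lower, and in miR155_KO against PU1_KI 10, under every alternative run, leaving out each library included. In PU1_KI against WT the count of enzymes called higher was 4 to 7 when 1 library was left out, and 4 with median-of-ratios scaling, quantile normalization, equal sums, no filter on low values and the replicate block. The block cost Pfkl (0.30, limma adjusted p = 0.0847) and Tpi1 (0.28, limma adjusted p = 0.0683) their calls. The labels do not say that a number is shared, and deviations from the genotype means correlated above 0.1 in 7 of 13 same-numbered pairs (median 0.106, lowest -0.387) and in 18 of 52 differently numbered pairs (median -0.0095). The 4 same-numbered pairs of PU1_KI and WT were all positive, at 0.217, 0.04, 0.358 and 0.12. Not every pair exceeded 0.1, and not every library correlated best with its own number, so the numbers were not taken to pair the samples. Paired samples could also miss this bar, so a pairing is not excluded, and the block is given as an alternative. Values near 0 in PU1_KI against WT changed sign. Eno1 was at -0.0872 with median-of-ratios scaling, -0.0857 with equal sums, -0.0832 with quantile normalization, -0.0378 with the block, between -0.0312 and 0.055 with 1 library left out, and -0.0051 without WT_1 and miR155_KO_5 together. Pgk1 and Ldha were at -0.0277 and -0.0206 with quantile normalization. The causes were not tested.

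Over all genes, those called lower in PU1_KI against WT numbered 1518 with median-of-ratios scaling, 1549 with quantile normalization, 1463 with equal sums and 242 with a filter of 5 RPKM, in place of 388. Genes higher in miR155_KO than in PU1_KI numbered 3033, 2831, 2888 and 869 in the same settings and 2822 without a filter, in place of 1725; genes higher in miR155_KO than in WT numbered 1468 with a filter of 5 RPKM, in place of 2616. Fewer genes are tested with that filter. Equal sums and leaving out WT_1 with miR155_KO_5 were chosen after seeing the data.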
